A study of Mus musculus with 40 samples.

Results

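The genes described here encode the extracellular matrix of mouse collecting duct cells, the integrins that bind it and the proteases and inhibitors that remodel it. They were chosen by symbol: collagen chains, laminin chains, integrin subunits, matrix metalloproteinases (Mmp) and their tissue inhibitors (Timp), plus Fn1, Nid1, Nid2, Hspg2, Sparc and Agrn. Of the 55414 genes in the deposited table, 118 are described: 44 collagen genes, 31 with an integrin symbol, 23 Mmp genes, 10 laminin genes, 4 Timp genes and 6 others. Among the 31, Itgb1bp1, Itgb1bp2, Itgb3bp and Itgbl1 encode other proteins and are not integrin subunits.

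The libraries were made from mpkCCD cells, which are immortalized cells of the mouse cortical collecting duct, and the series title concerns how CREB-family factors act in vasopressin's control of the water channel gene Aqp2. Every group used here was grown on permeable Transwell supports and kept for 72 hours in 0.1 nM dDAVP, which mimics vasopressin, so no group lacked the hormone. Of the 22 libraries, 11 came from control clones without edits. ATF1-KO is the label of 5 others, ATF1/CREB1-KO (double-KO below) of 3 and ATF1/CREB1/CREM-KO (triple-KO below) of the last 3. The other 18 samples, of rescued triple-KO cells, were not analysed here. By their labels the libraries are numbered in 3 consecutive sets, called runs below. Control clones 1 to 5 share run 1 with ATF1-KO, control clones 6 to 8 share run 2 with double-KO, and control clones 9 to 11 share run 3 with triple-KO. The labels do not call these batches, nor do they state that replicates under one knockout label are different clones. P-values therefore measure the spread between these samples, which may be technical.

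Epithelial cells rest on a basement membrane, a sheet in which laminins and type IV collagens form separate networks that perlecan, agrin and nidogens link together. Integrins are pairs of an alpha and a beta subunit that anchor the cell to that sheet and signal from it. Matrix metalloproteinases cut matrix and cell-surface proteins, and Timp proteins block them. In the collecting duct, integrins that contain the beta 1 subunit help keep the epithelium intact. ATF1, CREB1 and CREM bind the cAMP response element, whose full form is TGACGTCA and whose half-site is TGACG.

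The start regions of the genes were searched for these elements because the knocked-out factors bind them. RefSeq windows from 250 bases before to 50 bases after an annotated start, on GRCm38.p6, were found by symbol for 88 of the 118 genes, in 98 windows. The full element was in 1 of the 98 windows, that of Col24a1, and in 1.79% of all 32851 windows. The half-site, on either strand and counting those inside a full element, was in 10 of the 98 (10.2%) and in 20.8% of all windows. The AP-1 element TGAGTCA, which binds Fos and Jun proteins and is known from Mmp promoters, was in 10 of the 98 windows and in 5.20% of all. Its 10 genes were Col6a1, Itga9, Itgax and the Mmp genes Mmp1a, Mmp1b, Mmp3, Mmp7, Mmp10, Mmp12 and Mmp13. Only Mmp7 among them was tested for a change below. Of the 38 windows of tested genes, the AP-1 element was in 1 (2.63%), the half-site in 6 (15.8%) and the full element in 0. These are letter matches in one window for each start and say nothing of binding.

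Stretches of 100 bases that end before the first annotated exon are shown for the genes that the results below turn on. Itgb6, Itga1, Itga2 and Col8a1 passed the test as lower in the libraries labelled triple-KO, and Timp3 had the largest estimated decrease there. Of these, Itga2 and Col8a1 entered the test only through their controls. In capitals is the half-site as read on the strand shown, so that CGTCA is a half-site on the opposite strand.
Itgb6: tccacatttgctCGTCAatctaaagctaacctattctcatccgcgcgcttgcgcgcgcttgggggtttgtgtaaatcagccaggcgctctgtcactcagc
Itga1: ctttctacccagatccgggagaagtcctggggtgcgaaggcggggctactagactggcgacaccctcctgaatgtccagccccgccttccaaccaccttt
Itga2: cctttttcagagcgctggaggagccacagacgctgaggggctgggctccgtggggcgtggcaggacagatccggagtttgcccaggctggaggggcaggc
Col8a1: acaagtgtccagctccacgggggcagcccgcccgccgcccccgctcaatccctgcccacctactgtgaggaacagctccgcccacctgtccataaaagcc
Timp3: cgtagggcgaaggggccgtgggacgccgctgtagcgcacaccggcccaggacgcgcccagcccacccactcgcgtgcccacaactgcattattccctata
The stretches lie at chr2:60722644-60722743 for Itgb6, chr13:115101965-115102064 for Itga1, chr13:114932101-114932200 for Itga2 and chr16:57754738-57754837 for Col8a1, all on the minus strand, and at chr10:86300272-86300371 on the plus strand for Timp3. Of the 5, the Itgb6 stretch holds a half-site, whose first base lies 128 bases before the start. The windows of the other 4 genes hold none of the 3 elements.

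For comparison, 3 further genes with an element are shown. Itgb1 had the highest mean over the 11 control clones, Col4a5 was lower in every library labelled ATF1-KO than in its control clones, and Mmp7 was listed at 0 in control clones 2 to 11. In capitals is the half-site in Itgb1 and Col4a5 and the AP-1 element in Mmp7.
Itgb1: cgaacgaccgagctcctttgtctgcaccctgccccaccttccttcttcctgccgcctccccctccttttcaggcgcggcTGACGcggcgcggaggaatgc
Col4a5: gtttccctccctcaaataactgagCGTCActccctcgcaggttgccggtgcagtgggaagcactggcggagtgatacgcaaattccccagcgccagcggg
Mmp7: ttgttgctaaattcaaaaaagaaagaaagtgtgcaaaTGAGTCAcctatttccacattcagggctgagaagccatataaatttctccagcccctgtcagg
These lie on the plus strand at chr8:128685554-128685653, chrX:141475285-141475384 and chr9:7691990-7692089. The elements begin 21, 110 and 63 bases before the start of Itgb1, Col4a5 and Mmp7.

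Levels are given as TPM (a measure of transcript abundance), which is corrected for transcript length and has the same sum in each library. Read depth is unknown in this unit. Of the 118 genes, 39 averaged at least 1 TPM across the 22 libraries: 14 with an integrin symbol, 8 collagens, 6 laminins, 4 Mmp genes, 3 Timp genes and 4 others. A further 67 were above 0 somewhere with a mean under 1 TPM, and 12 were listed at 0 in all 22.

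The most abundant genes in the 11 control clones, by mean, were Itgb1 (593 TPM), encoding the beta subunit shared by most epithelial integrins, Timp2 (237 TPM), Itgb5 (229 TPM), Mmp14 (189 TPM), encoding a membrane-anchored collagenase, Col18a1 (178 TPM), the basement membrane collagen that yields endostatin, Itga3 (146 TPM), a laminin receptor subunit, Agrn (136 TPM), Lamb1 (122 TPM), Lama5 (120 TPM) and Mmp11 (89.4 TPM). The order differed in run 2, where the highest in control clones 6 to 8 were Timp2 (172 TPM), Itga2b (137 TPM) and Itgb1 (109 TPM). Among type IV collagens, Col4a1 averaged 36.8 TPM. The collagens of interstitial tissue were at or near 0, with Col1a1 at most 1.05 TPM, Col3a1 at most 0.21 TPM and Col1a2 at 0 in every library. The nidogens Nid1 and Nid2 reached at most 1.09 and 0.78 TPM, Col4a6 reached 0.66, the gelatinase gene Mmp9 0.38 and Timp4 0.09 TPM. Lama1 was listed at 0 in every library.

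Control levels differed by run. The 118 genes summed to between 3222 and 4045 TPM in the libraries of runs 1 and 3 and to between 1158 and 1280 TPM in the 6 of run 2. Among the 39 genes with a control mean of at least 1 TPM, the median level in control clones 6 to 8 was 24.9% of the mean of the other control sets. Over all 13334 genes at that level, this median was 31.4%. Of the 39, 5 were higher in control clones 6 to 8, against 19.4% of all such genes. Itga2b, encoding the platelet integrin alpha subunit, was one of them, with 137 TPM ± 20.7 (SD, n = 3) in run 2 against 32.6 TPM ± 6.34 (SD, n = 5) in run 1 and 30.4 TPM ± 1.56 (SD, n = 3) in run 3. Timp1 was another, with 44.8 TPM ± 6.05 (SD, n = 3) against 19.7 TPM ± 6.46 (SD, n = 5) and 20.8 TPM ± 3.52 (SD, n = 3). Each knockout label was therefore compared with the control clones of its own run.

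**Figure D1:**
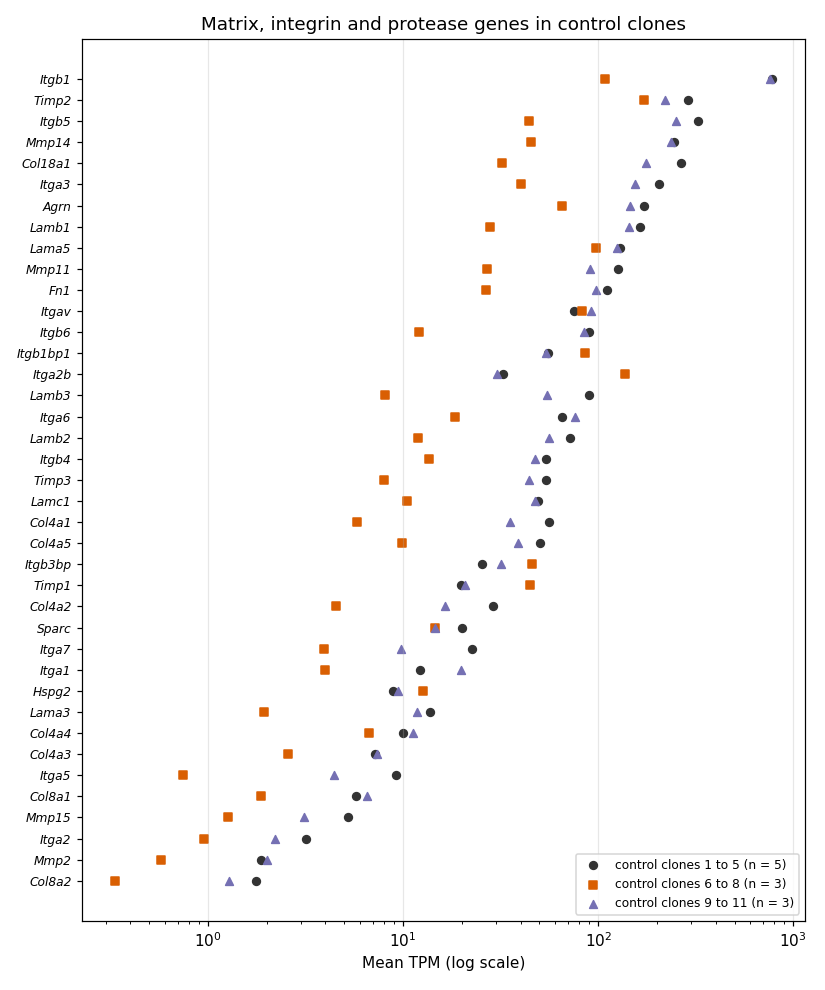
Mean TPM of each gene (rows, log axis) in control clones 1 to 5, 6 to 8 and 9 to 11, for genes that averaged 1 TPM or more. Most points of control clones 6 to 8 lie to the left of the other sets, and Itga2b and Timp1 lie to the right.

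Several facts of the series bear on all results. Ribosomal protein genes took 7.05% to 15.1% of TPM in run 2 and 2.61% to 4.03% elsewhere, and pairs of libraries from run 2 and another run correlated at 0.767 to 0.844 over 13295 genes, against 0.920 to 0.980 within runs 1 and 3. Within run 2, double-KO replicate 3 stood apart (0.922 to 0.936, other pairs 0.957 to 0.979), and in run 3, triple-KO replicate 1 did (0.952 with replicates 2 and 3, which correlated at 0.980). Crem was not lower in the libraries labelled triple-KO (30.5 TPM, controls 22.7 TPM), while Creb1 was (18.7 TPM, controls 37.7 TPM). Creb1 averaged 3.39 TPM under the double-KO label, with 5.55 TPM in its controls. Atf1 averaged 26.6, 19.0 and 32.4 TPM under the ATF1-KO, double-KO and triple-KO labels, with 42.2, 24.5 and 40.1 TPM in their controls. In triple-KO replicate 2, Atf1 was at 40.81 TPM, above the 39.78 to 40.52 TPM of its controls. Crem was at 15.49, 20.47 and 46.54 TPM in double-KO replicates 1 to 3, with 9.08 to 12.96 TPM in controls. These are transcript levels, and no protein level of the 3 factors was available here. Of 15 principal cell markers, 12 had a mean of at least 1 TPM. Their sum was 7029 to 11412 TPM in runs 1 and 3 and 2469 to 4748 TPM in run 2. The libraries labelled triple-KO had 7029 to 7661 TPM and their controls 8464 to 11412 TPM. Among these markers Aqp2 was at 15.1 to 16.05 TPM under the triple-KO label and at 640.62 to 2279.29 TPM in controls. Krt8, Krt18, Avpr2 and Gata3 were also below the controls in every library labelled triple-KO. Cdh1 (1202.4 to 1278.39 TPM, controls 785.12 to 849.84 TPM), Epcam, Tfcp2l1 and Aqp3 were above them in every one, and the others overlapped. Of 8 fibroblast and pericyte markers, 1 reached a mean of 1 TPM, their sum was at most 10.0 TPM, and Lum and Meox2 were at 0. The endothelial marker Cdh5 was at 0. Of 6 leukocyte markers, Cd68 and Csf1r reached a mean of 1 TPM. In run 3 the 6 summed to 6.11 to 51.4 TPM under the triple-KO label and to 18.6 to 19.8 TPM in controls. Csf1r was at 3.83, 45.49 and 47.95 TPM in triple-KO replicates 1 to 3, with 11.74 to 14.27 TPM in controls. Cd68 was at 1.88, 2.62 and 2.97 TPM in these replicates, with 4.89 to 7.75 TPM in controls. There the 6 proximal tubule markers summed to 1.38 to 25.5 TPM with 20.0 to 21.6 TPM in controls, and Slc22a6 was at 0. Most of this was Lrp2, at 25.2, 1.1 and 1.66 TPM in triple-KO replicates 1 to 3 and 19.82 to 21.53 TPM in controls. The other 5 had a mean under 1 TPM. The 7 intercalated cell markers summed to 68.9 to 99.5 TPM with 80.9 to 103 TPM in controls, and Insrr was at 0. Nearly all of this was Atp6v1b1, at 67.45, 98.33 and 96.54 TPM in triple-KO replicates 1 to 3 and 79.97 to 102.82 TPM in controls. Of the 7, 5 had a mean under 1 TPM. The 4 thick ascending limb and distal tubule markers summed to 1.96 to 4.4 TPM under the triple-KO label and to 0.04 to 0.14 TPM in controls. Most of this was Slc12a3, at 4.4, 1.24 and 1.68 TPM in triple-KO replicates 1 to 3 and 0.04 to 0.14 TPM in controls. Pvalb was at 0. The part of all these markers in the triple-KO results was not tested. In such bulk libraries, fewer cells of a type and less RNA per cell cannot be told apart.

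Differences were tested with limma on log2(TPM + 1), using every gene that averaged 1 TPM or more in the libraries compared. A gene was called where its Benjamini-Hochberg adjusted p over all genes tested was under 0.05. Log2 changes carry standard errors. Across the 3 comparisons, 40 of the 118 genes were tested at least once and 78 never, of which the highest value in any library was 2.33 TPM.

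In the libraries labelled ATF1-KO, none of the 39 genes tested was called, and 3 had an unadjusted p under 0.05. Over all 13318 genes limma also called none (0%), with 1014 (7.61%) at an unadjusted p under 0.05. The median log2 change of the 39 was -0.12, against -0.00346 over all genes. Libraries of the compared groups did not overlap for 2 of the 39, against 1.3% of all genes tested. Fn1 was higher (0.563% of all genes were) and Col4a5 lower (0.736% of all genes were).

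Fn1 encodes fibronectin, the adhesive matrix glycoprotein that integrins assemble into fibrils. It was at 89.39, 131.67, 88.76, 112.24 and 131.21 TPM in control clones 1 to 5 and at 184, 169.83, 140.16, 185.48 and 179.69 TPM in ATF1-KO replicates 1 to 5. Every library labelled ATF1-KO lay above every control clone of the run. The log2 change was 0.64 (SE 0.13, limma adjusted p 0.514), so the call was not made. In the double-KO and triple-KO comparisons the log2 changes of Fn1 were -0.26 (SE 0.23) and 0.16 (SE 0.17). The difference between the double-KO and ATF1-KO changes was -0.91 (SE 0.25, limma adjusted p 0.0708).

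Col4a5 encodes the alpha 5 chain of type IV collagen, which is altered in X-linked Alport syndrome. It was at 50.49, 46.18, 46.78, 59.54 and 48.67 TPM in control clones 1 to 5 and at 37.05, 44.21, 45.67, 41.74 and 42.84 TPM in ATF1-KO replicates 1 to 5. Each library labelled ATF1-KO lay below each control clone, the nearest by less than 1 TPM. The log2 change was -0.24 (SE 0.09, limma adjusted p 0.608). In the triple-KO comparison Col4a5 was at 38.8 TPM ± 0.786 (SD, n = 3) in controls and 39.4 TPM ± 4.51 (SD, n = 3) in the libraries labelled triple-KO.

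The libraries labelled double-KO gave no call among the 35 genes tested, and 5 had an unadjusted p under 0.05. Limma called 9 of all 12579 genes there (0.0715%), with 0.0318% higher and 0.0397% lower, and 1199 (9.53%) had an unadjusted p under 0.05. Groups did not overlap for 9 of the 35, against 19% of all genes. Of these, 8 were lower (12.4% of all genes were) and 1, Itgb5, was higher (6.67% of all genes were). The 8 lower genes were Timp3, Lamb2, Col4a2, Col4a3, Col4a4, Itgb4, Itgb6 and Itga3. The median log2 change of the 35 was -0.20, against -0.03 over all genes. All 7 collagens tested had an estimate below 0, from -0.74 for Col4a3 to -0.02 for Col4a1. In Col4a1, Col4a5 and Col18a1, however, double-KO replicate 1 lay above every control clone of the run. Col4a5 was at 11.8, 9.84 and 6.94 TPM and Col18a1 at 39.79, 30.79 and 18.98 TPM in replicates 1 to 3. For these 2, replicate 3, the library that stood apart, was the lowest.

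Lamb2, the laminin beta 2 chain, was at 15.56, 9.55 and 10.65 TPM in control clones 6 to 8 and at 7.2, 7.55 and 3.53 TPM in double-KO replicates 1 to 3. The library labelled double-KO replicate 3 was the lowest, and the groups did not overlap. Its log2 change was -0.89 (SE 0.31, limma adjusted p 0.462). Itgb4, the integrin beta 4 subunit that pairs with alpha 6 in hemidesmosomes, was at 12.46, 14.12 and 14.16 TPM in these controls and at 7.91, 11.48 and 5.54 TPM in the same replicates. Its log2 change was -0.69 (SE 0.26, limma adjusted p 0.480). With run as a term in a fit over all 22 libraries, the spread is estimated from all 3 runs together. The estimates stayed the same, with smaller standard errors of 0.22 for Lamb2 and 0.19 for Itgb4. There Lamb2 (limma adjusted p 0.0221) and Itgb4 (limma adjusted p 0.0414) passed the threshold, and these were the only 2 of the genes called. In that fit 4.58% of all genes were called, 3.11% as lower.

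Among the type IV collagen chains, Col4a3 was at 2.2, 3.38 and 2.16 TPM in control clones 6 to 8 and at 1.44, 0.9 and 1.07 TPM in the libraries labelled double-KO. The values of Col4a2 were 4.6, 5.09 and 3.91 TPM in the controls and 3.7, 2.84 and 2.29 TPM in the libraries labelled double-KO. In both genes every library labelled double-KO was below every control, and neither passed the test (log2 changes -0.74 and -0.50, limma adjusted p 0.447 and 0.521). Col4a4 had a log2 change of -0.48 (SE 0.21, limma adjusted p 0.536). Itga3 and Itgb6 had log2 changes of -0.39 (SE 0.25) and -0.37 (SE 0.20). With one library left out these ranged from -0.53 to -0.14 for Itga3 and from -0.46 to -0.25 for Itgb6. Itgb5, whose beta subunit pairs with alpha v, was at 44.3 TPM ± 3.62 (SD, n = 3) in controls and averaged 51.4 TPM ± 3.68 (SD, n = 3) under the double-KO label.

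Timp3 encodes a metalloproteinase inhibitor that binds to the matrix itself. In run 2 it was at 6.82, 12.69 and 4.48 TPM in control clones 6 to 8 and at 0.72, 1.62 and 1.16 TPM in double-KO replicates 1 to 3. The groups did not overlap, and the mean of the libraries labelled double-KO was 14.6% of the control mean. The log2 change of -1.97 (SE 0.36) did not pass the test against own-run controls (limma adjusted p 0.166). Against all 11 control clones, most of which belong to runs with higher levels of these genes, it was -3.80 (limma adjusted p 0.0189), in a comparison that called 32.1% of all genes and 19 of the 39 tested. With run as a term it remained at -1.97 (limma adjusted p 0.230).

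In run 1 the values of Timp3 were 43.8, 95.65, 43.8, 49.4 and 36.82 TPM in control clones 1 to 5 and 0.78, 70.5, 16.72, 13.8 and 34.8 TPM in ATF1-KO replicates 1 to 5. Here 4 of 5 libraries labelled ATF1-KO were below every control clone and replicate 2 was above all but one. In run 3 they were 38.29, 67.99 and 26.22 TPM in control clones 9 to 11 and 0.6, 8.53 and 12.12 TPM in triple-KO replicates 1 to 3, with no overlap. Replicate 1 had the lowest value under each of the 3 knockout labels. The log2 changes were -1.65 (SE 0.79, limma adjusted p 0.680) in ATF1-KO and -2.84 (SE 0.79, limma adjusted p 0.0728) in triple-KO. Without triple-KO replicate 1 the latter was -1.91 and passed the test (limma adjusted p 0.0133), in a fit that called 25.1% of all genes. The triple-KO change passed under only this 1 of the 12 alternatives tried. The double-KO change differed from the ATF1-KO change by -0.32 (SE 1.16, limma adjusted p 0.926). The triple-KO change differed from the double-KO change by -0.87 (SE 1.30, limma adjusted p 0.863). Neither difference was called. As a share of the control mean, Timp3 was at 14.6% in double-KO and 16.0% in triple-KO. Adding 1 to each TPM before the log makes changes smaller at the lower levels of run 2.

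**Figure D2:**
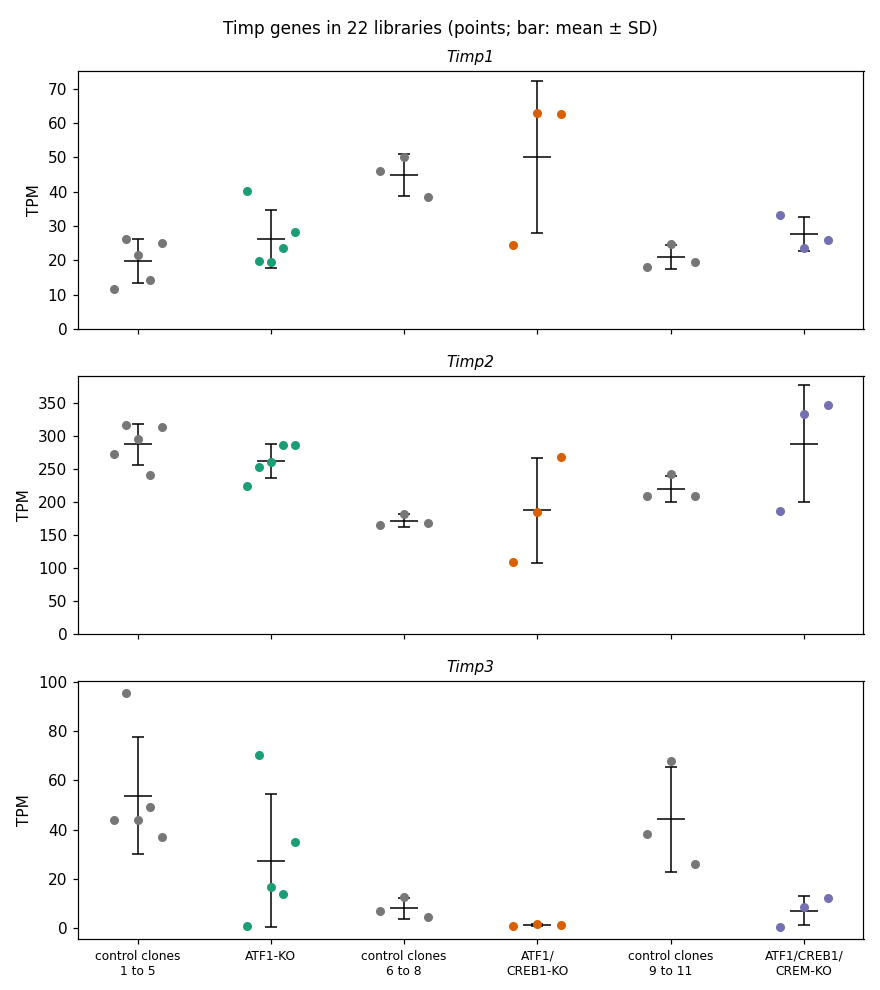
TPM of Timp1, Timp2 and Timp3 in each of the 22 libraries (points), by run and label, with mean ± SD as bars. Timp3 lies below its own-run control clones in every library labelled double-KO (0.72 to 1.62 TPM) and triple-KO (0.6 to 12.12 TPM), while Timp1 and Timp2 overlap their controls in every run.

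The other inhibitors did not pass the test in any comparison. Timp1, a secreted inhibitor with growth factor activity, had log2 changes of 0.40 (SE 0.25) in ATF1-KO, 0.05 (SE 0.38) in double-KO and 0.39 (SE 0.17) in triple-KO. Timp2, which together with Mmp14 activates the gelatinase Mmp2, had log2 changes of -0.13 (SE 0.09), 0.03 (SE 0.33) and 0.34 (SE 0.24). In run 3, Timp2 was at 208.19, 242.53 and 208.64 TPM in control clones 9 to 11 and at 186.02, 332.37 and 346.8 TPM in triple-KO replicates 1 to 3, so replicate 1 lay below the controls and the others above.

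The libraries labelled triple-KO gave 5 calls among the 39 genes tested (12.8%), where limma called 9.17% of all 13258 genes. Col4a1 rose (2.56% of the 39, against 3.91% of all genes called higher). Itgb6, Itga1, Itga2 and Col8a1 fell (10.3%, against 5.26% called lower). Of these, Itga2 and Col8a1 averaged under 1 TPM in the libraries labelled triple-KO and entered the test through their controls, so the count is a description. Groups did not overlap for 13 of the 39 (33.3%), against 34.6% of all genes, so the share of separated genes was near that of the background. Of the 13, 5 were higher (12.8%, against 14.5% of all genes) and 8 lower (20.5%, against 20.2%). At an unadjusted p under 0.05 there were 11 of the 39 (28.2%), against 27% of all genes. The median log2 change of the 39 was 0.05, against -0.05 over all genes. By family, 1 of 7 collagens rose and 1 fell, 3 of 14 genes with an integrin symbol fell, and none of 6 laminin, 5 Mmp, 3 Timp and 4 other genes was called. Of the 6 laminins, 5 had an estimate above 0.

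**Figure D3:**
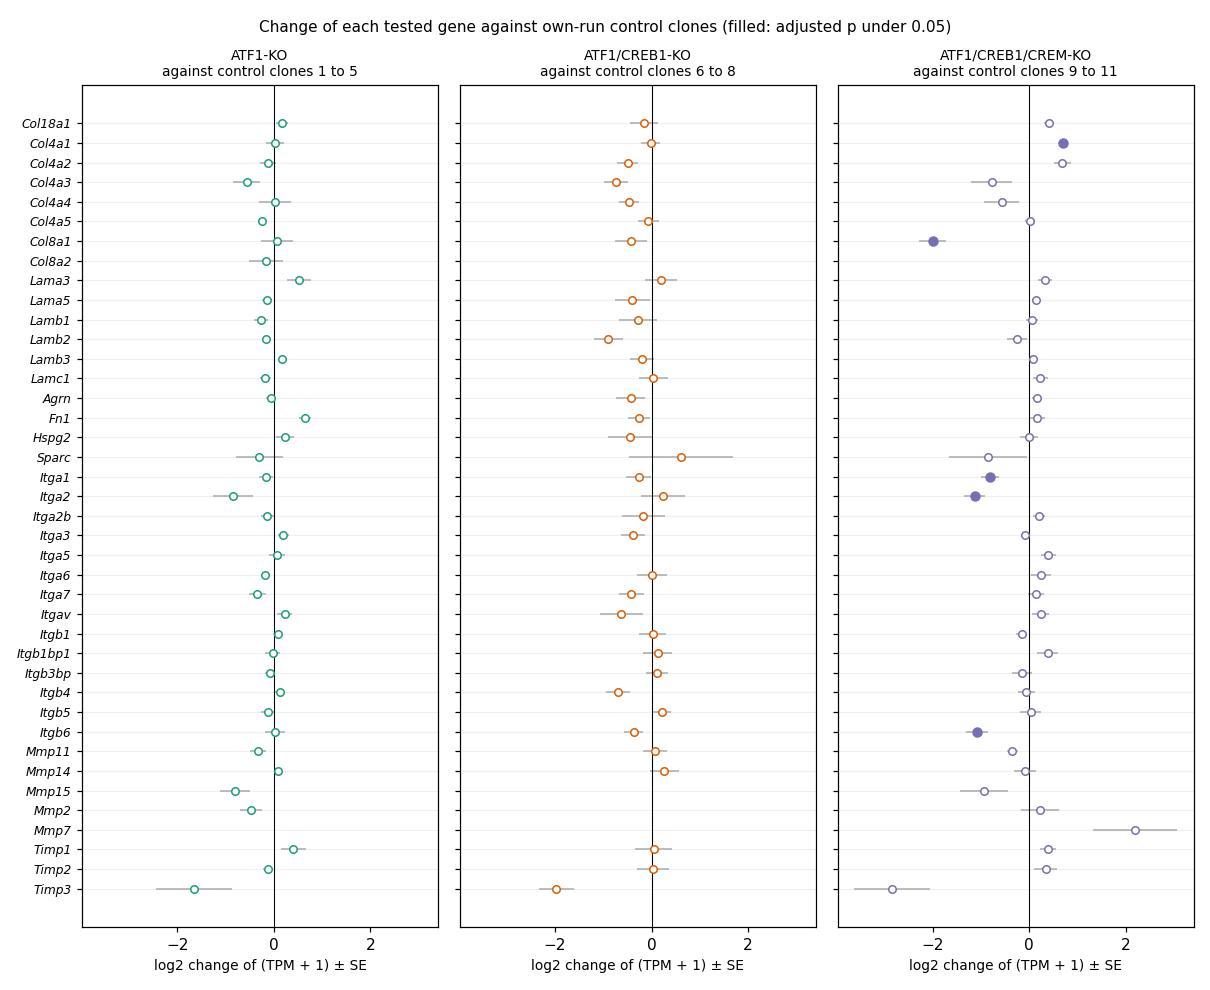
Log2 change of (TPM + 1) with its standard error for each gene tested, against own-run control clones, in the ATF1-KO, double-KO and triple-KO comparisons. Filled points mark limma adjusted p under 0.05, which are 0, 0 and 5 genes.

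The laminin chains were not called in triple-KO. Lama3, an alpha chain of epithelial laminins, was at 10.74, 13.78 and 10.92 TPM in control clones 9 to 11 and at 16.03, 13.38 and 15.38 TPM in triple-KO replicates 1 to 3. Only replicate 2 lay within the control range, and the log2 change was 0.32 (SE 0.14, limma adjusted p 0.207). Lama5, the main alpha chain of mature kidney basement membranes, was at 126.64, 130.3 and 118.66 TPM in controls and at 143.28, 130.57 and 141.09 TPM in replicates 1 to 3. Its groups did not overlap, by a margin of less than 1 TPM, and the log2 change was 0.14 (SE 0.08, limma adjusted p 0.300). The other estimates were -0.26 for Lamb2, 0.05 for Lamb1, 0.08 for Lamb3 and 0.23 for Lamc1, with standard errors of 0.20, 0.12, 0.09 and 0.16.

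Col4a1 (ENSMUSG00000031502) encodes the alpha 1 chain of the type IV collagen found in all basement membranes. It was at 31.9, 35.45 and 39.05 TPM in control clones 9 to 11 and at 60.38, 57.98 and 55.15 TPM in triple-KO replicates 1 to 3. All 3 libraries labelled triple-KO were above the controls, with a log2 change of 0.69 (SE 0.10, limma adjusted p 0.0128). Its partner Col4a2, whose RefSeq start window shares 78 bases with that of Col4a1, was at 15.05, 17.94 and 15.93 TPM in controls and at 20.41, 31.31 and 29.82 TPM in replicates 1 to 3. The groups again did not overlap, and Col4a2 missed the threshold (log2 change 0.68, SE 0.18, limma adjusted p 0.0623). Without triple-KO replicate 1, its lowest library of that label, the change was 0.87 (limma adjusted p 0.00295). That fit called 25.1% of all genes. The Col4a2 change in triple-KO exceeded that in double-KO by 1.18 (SE 0.30, limma adjusted p 0.194).

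The chains of the other type IV networks were not called. Col4a3 was at 6.97, 7.93 and 7.12 TPM in control clones 9 to 11 and at 1.39, 5.43 and 6.4 TPM in triple-KO replicates 1 to 3, with a log2 change of -0.78 (SE 0.42, limma adjusted p 0.279). Its 3 libraries labelled triple-KO lay below the controls, replicate 1 far below. Col4a4 had a log2 change of -0.57 (SE 0.37, limma adjusted p 0.358) and Col4a5 of 0.01 (SE 0.11, limma adjusted p 0.949). Col18a1 was at 172.88, 153.37 and 200.24 TPM in controls and at 238.87, 225.43 and 229.44 TPM in replicates 1 to 3. The groups did not overlap, with a log2 change of 0.40 (SE 0.11, limma adjusted p 0.0664).

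Col8a1 (ENSMUSG00000068196), the alpha 1 chain of the short-chain collagen VIII of basement membranes beneath endothelia, was at 7, 5.69 and 6.88 TPM in control clones 9 to 11 and at 0.28, 1.13 and 1.43 TPM in triple-KO replicates 1 to 3. Its mean fell to 14.5% of the control mean, with a log2 change of -2.0 (SE 0.28, limma adjusted p 0.0106), and no library overlapped. Col8a1 entered this test only through its controls, so these values are a description. In double-KO the values were 1.63, 1.96 and 2.04 TPM in controls and 0.37, 1.82 and 1.51 TPM in replicates 1 to 3, again with replicate 1 lowest. That change was -0.43 (SE 0.32, limma adjusted p 0.707). The difference of the triple-KO and double-KO changes was -1.57 (SE 0.55, limma adjusted p 0.397).

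Itgb6 (ENSMUSG00000026971) encodes the epithelial integrin subunit that pairs with alpha v, binds fibronectin and activates latent TGF-beta. It was at 89.04, 65.94 and 98.46 TPM in control clones 9 to 11 and at 28.36, 45.79 and 44.24 TPM in triple-KO replicates 1 to 3. The highest library labelled triple-KO was below the lowest control, and the log2 change was -1.09 (SE 0.22, limma adjusted p 0.0330). Its partner Itgav had a log2 change of 0.23 (SE 0.17, limma adjusted p 0.431). In run 1 Itgb6 was at 90.3 TPM ± 26.5 (SD, n = 5) in controls and 88.8 TPM ± 15.2 (SD, n = 5) under the ATF1-KO label.

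Itga1 (ENSMUSG00000042284) and Itga2 (ENSMUSG00000015533) encode the collagen-binding subunits that pair with beta 1. Itga1 was at 21.9, 15.43 and 22.32 TPM in control clones 9 to 11 and at 8.73, 11.99 and 11.67 TPM in triple-KO replicates 1 to 3. Itga2 was at 2.02, 2.43 and 2.19 TPM in controls and at 0.48, 0.39 and 0.53 TPM in these replicates. Itga2 entered the test only through its controls. Both fell without overlap, Itga1 by a log2 change of -0.82 (SE 0.19, limma adjusted p 0.0459) and Itga2 by a log2 change of -1.13 (SE 0.22, limma adjusted p 0.0270). The level of Itga2 varied widely elsewhere, from 1.2 to 7.59 TPM in control clones 1 to 5. Itgb1, their partner, was at 762 TPM ± 27.8 (SD, n = 3) in controls and averaged 688 TPM ± 105 (SD, n = 3) under the triple-KO label (log2 change -0.16, SE 0.12).

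The laminin-binding subunits were not called in triple-KO. Itga3 was at 152.19, 154.19 and 156.91 TPM in control clones 9 to 11 and at 142.21, 143.15 and 147.88 TPM in replicates 1 to 3. These groups did not overlap, but the log2 change was -0.10 (SE 0.07, limma adjusted p 0.406). Itga6 had a log2 change of 0.23 (SE 0.20) and Itgb4 of -0.06 (SE 0.18). Itga5, the fibronectin receptor subunit, was at 4.21, 4.33 and 4.74 TPM in controls and at 6.53, 6.23 and 5.67 TPM in replicates 1 to 3. It too was separated without a call (log2 change 0.40, SE 0.14, limma adjusted p 0.140).

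**Figure D4:**
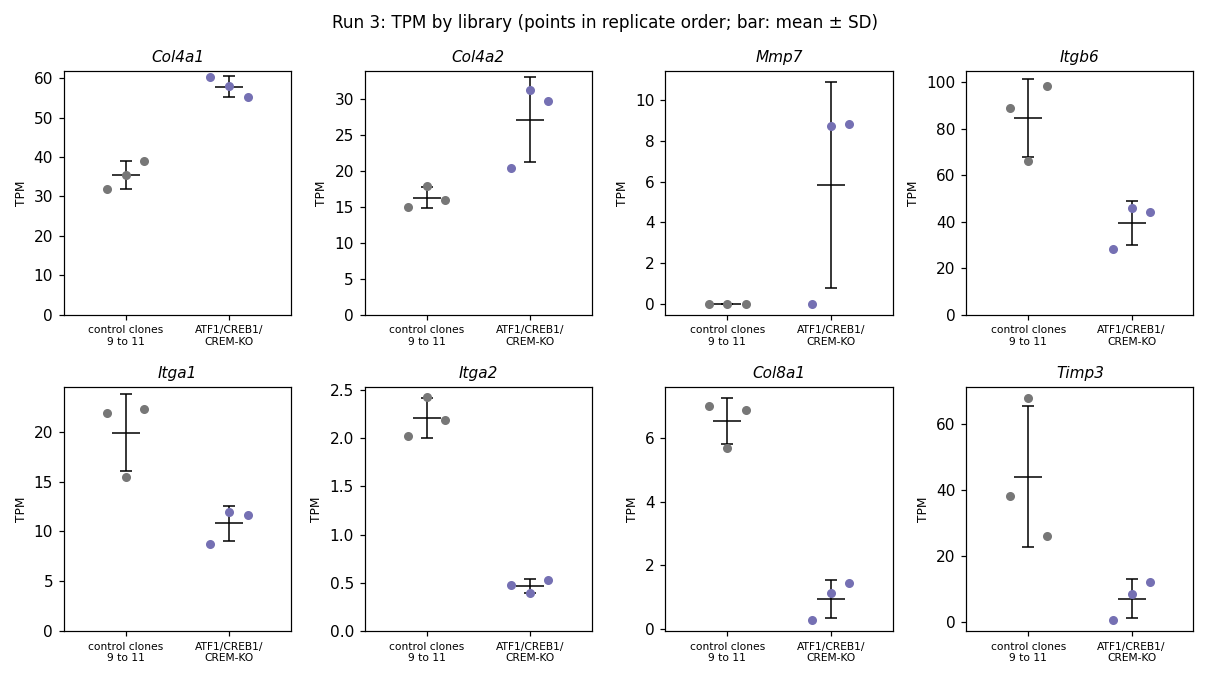
TPM of Col4a1, Col4a2, Mmp7, Itgb6, Itga1, Itga2, Col8a1 and Timp3 in control clones 9 to 11 and triple-KO replicates 1 to 3 (points in that order), with mean ± SD as bars. All but Mmp7 separate the groups, and Mmp7 is at 0 in the controls and replicate 1.

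Among the proteases none was called. Mmp14 was at 233.75, 239.58 and 239.56 TPM in control clones 9 to 11 and at 331.24, 187.44 and 178.21 TPM in triple-KO replicates 1 to 3, with replicate 1 above the controls and the others below. Its log2 change was -0.09 (SE 0.23, limma adjusted p 0.829). Without replicate 1 it was -0.38 (limma adjusted p 0.00713), in a fit that called 25.1% of all genes. Mmp11, encoding stromelysin-3, was at 90.88, 91.65 and 90.29 TPM in controls and at 65.18, 65.64 and 82.96 TPM in replicates 1 to 3, all lower, with a log2 change of -0.36 (SE 0.11, limma adjusted p 0.0978). Mmp15, another membrane-type protease, had log2 changes of -0.80 (SE 0.31) in ATF1-KO and -0.94 (SE 0.49) in triple-KO (limma adjusted p 0.623 and 0.266). The gelatinase gene Mmp2 was tested in ATF1-KO (log2 change -0.47, SE 0.22) and triple-KO (0.22, SE 0.39), where limma adjusted p was 0.670 and 0.758.

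Mmp7 encodes matrilysin, a small epithelial protease. It was listed at 0 in control clones 9 to 11 and in triple-KO replicate 1, and was at 8.72 and 8.83 TPM in replicates 2 and 3. In run 2 it was listed at 0 in control clones 6 to 8 and at 0, 2.63 and 0.65 TPM in double-KO replicates 1 to 3. In run 1 it was at 0.08 TPM in 1 control clone and in 1 library labelled ATF1-KO and at 0 in the others. Csf1r, a leukocyte marker, was likewise lowest in triple-KO replicate 1 (3.83 TPM) and higher in replicates 2 and 3 (45.49 and 47.95 TPM). Cd68, another leukocyte marker, was at 1.88, 2.62 and 2.97 TPM in these replicates, below its 4.89 to 7.75 TPM in controls. Ptprc was at 0.15 to 0.4 TPM in them, Cd79a at most 0.08 TPM, and Cd3e and Itgam at 0. The part of leukocyte markers in the Mmp7 values was not tested. Mmp7 entered the triple-KO test only through the libraries in which it was high, so its values are a description.

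The 5 triple-KO calls depended on which libraries were kept, while their log2 changes kept their direction. With one library left out these ranged from 0.62 to 0.76 for Col4a1, -2.18 to -1.72 for Col8a1, -1.17 to -1.08 for Itga2, -1.26 to -0.87 for Itgb6 and -0.98 to -0.69 for Itga1. Without control clone 9 none of the 39 was called (1.4% of all genes were). Without triple-KO replicate 2 and without control clone 11 the count was 1 (2.59% and 2.12% of all genes). It was 2 without triple-KO replicate 3 and 3 without control clone 10 (3.07% and 3.7% of all genes). Without triple-KO replicate 1, the library that stood apart, 13 were called, in a fit that called 25.1% of all genes. These 13 included the 5 and added Timp2, Fn1, Col4a2, Itgb5 and Mmp7 as higher and Timp3, Mmp14 and Itgb1 as lower. Against all 11 control clones the only call was Mmp7 (1.03% of all genes were called). Mmp7 entered both of these fits through the libraries where it was high. With run as a term in the fit, Itgb6, Itga1 and Col8a1 were called (8.02% of all genes were).

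Differences between knockout labels were tested as differences of the own-run changes. None of 39 genes was called between double-KO and ATF1-KO (1.46% of all genes were) or between triple-KO and double-KO (0.188%). At an unadjusted p under 0.05 there were 5 of the 39 in each (12.8%). The share of all genes at that p is not given here, so nothing is read from this count. A call in triple-KO and none in double-KO is therefore not shown to be a difference between them.

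Other genes of matrix assembly, adhesion and proteolysis were read from a list of 102 symbols, 100 of which are in the table. Of these, 66 were tested in ATF1-KO with none called, and 62 in double-KO with 1 called (1.61%, against 0.0715% of all genes). In triple-KO 67 were tested and 11 called (16.4%, against 9.17% of all genes), of which 6 rose (8.96%, against 3.91%) and 5 fell (7.46%, against 5.26%). One of the 6, Serpinb5, entered the test only through the libraries labelled triple-KO. In triple-KO, 2 of 12 genes of collagen processing rose, 3 of 14 other matrix proteins fell, 2 of 18 other proteases and inhibitors rose, and of 23 adhesion genes 2 rose and 2 fell. The median log2 change of the 67 was 0.09, against -0.05 over all genes.

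Tln2 encodes talin 2, which couples integrin tails to actin. It was at 29.05, 33.81 and 28.42 TPM in control clones 6 to 8 and at 0.66, 1.35 and 1.85 TPM in double-KO replicates 1 to 3, far below without overlap (log2 change -3.81, SE 0.24, limma adjusted p 0.00772). In run 3 it was at 12.99, 11.57 and 12.83 TPM in controls and at 2.28, 3.48 and 3.49 TPM in the libraries labelled triple-KO, again lower in all (log2 change -1.73, SE 0.18, limma adjusted p 0.00386). In run 1 the ranges overlapped, with 6.19 to 16.21 TPM in controls and 5.82 to 10.45 TPM in the libraries labelled ATF1-KO. The double-KO call was lost without replicate 2 and without control clone 7, although the log2 change stayed between -3.99 and -3.60 with any one library left out, and the triple-KO call was kept under all 12 alternatives tried.

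Serpinb5 encodes maspin, a serpin of epithelial cells. It was at 0.33, 0.21 and 0.04 TPM in control clones 9 to 11 and at 20.25, 13.84 and 13.75 TPM in triple-KO replicates 1 to 3. It passed the filter on low values only through the latter, so these values are a description. In run 1 it was at 0.06 to 0.25 TPM in controls and 0.5 to 2.5 TPM in the libraries labelled ATF1-KO, where its levels did not overlap either. The secreted matrix protein Spp1 (osteopontin) fell from 426.87, 385.24 and 360.54 TPM to 20.03, 74.63 and 100.89 TPM in triple-KO (log2 change -2.84, SE 0.54, limma adjusted p 0.0270).

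The matricellular genes Ccn2 and Ccn1, both known targets of the YAP pathway, and Vcl, encoding the adhesion adaptor vinculin, also fell in triple-KO. Ccn2 went from 141.2, 137.43 and 152.09 TPM to 36.25, 61.32 and 61.59 TPM (log2 change -1.46, SE 0.21, limma adjusted p 0.0109). Vcl went from 147.01, 138.8 and 140.11 TPM to 88.94, 69.54 and 67.95 TPM (log2 change -0.91, SE 0.12, limma adjusted p 0.00827), and Ccn1 had a log2 change of -0.87 (SE 0.20, limma adjusted p 0.0463). In these genes each library labelled triple-KO was below each control. The genes that rose included Ctsl (cathepsin L, log2 change 0.79), Pcolce (an enhancer of procollagen cleavage, 0.69), Cd151 (a tetraspanin bound to laminin-binding integrins, 0.67) and P4ha1 (a collagen prolyl hydroxylase subunit, 0.60). Without control clone 9, the list's 11 calls became 3, and without triple-KO replicate 1 they became 31, in the fits that called 1.4% and 25.1% of all genes. They became 5, 6, 5 and 4 without triple-KO replicate 2, triple-KO replicate 3, control clone 10 and control clone 11, where 2.59%, 3.07%, 3.7% and 2.12% of all genes were called.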

How the data were processed

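RNA-seq values from 22 libraries were used. The authors deposited one table of TPM per gene. Per the submitters' processing notes, STAR and RSEM were used; versions, genome build and annotation are not given in the sources used here. That the unit is TPM was read from the column sums, which are all equal. TPM hides depth, and a change in a few abundant genes shifts all others.

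The genes, the list of other matrix genes and the comparisons were chosen with earlier results of these data known. A further 1 gene that matched the symbols is not reported here and enters no count of these genes. Own-run libraries were fitted with limma 3.58.1 in R 4.3.3 (lmFit, eBayes with trend) on log2(TPM + 1) of genes averaging 1 TPM or more, with Benjamini-Hochberg adjustment over all genes. Steps between labels came from 1 fit on 22 libraries. The test was tried on simulated data. Named genes were a fixed core of basement membrane, integrin and protease genes, every call, up to 5 per direction with groups that did not overlap and a mean of at least 3 TPM, and the 10 most abundant in controls. Up to 5 called genes per direction were named from the list of other matrix genes. Table symbols were used, and 2 list symbols were absent from it. The alternatives were another control set, run as a term, pseudocount 0.1, no filter, 2 other scalings, the replicate block and each library left out. The start windows came from RefSeq on GRCm38.p6, and exons from GENCODE M21.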

Additional observations from a re-analysis of the deposited data

Results flagged for a closer look

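In groups of 5, a value was singled out when its gap to the nearest other value exceeded 0.71 of the range, which chance does in about 1 of 20 groups. Of 78 groups tested, 6 had such a value, where 3.9 would be expected. Control clone 1 was the highest for 3 genes: Lama5 at 174 TPM (others 114.25 to 123.15), Agrn at 217 TPM (others 153.59 to 169.35) and Col4a3 at 13.5 TPM (others 4.94 to 6.43). Control clone 3 was the lowest for Itgb5 at 246 TPM (others 339.05 to 351.52). Among the libraries labelled ATF1-KO, replicate 1 was the lowest for Itga5 at 7.14 TPM (others 9.61 to 10.72), and replicate 2 was the lowest for Col8a1 at 2.43 TPM (others 5.74 to 7.59). None of these genes was called in ATF1-KO by limma under any alternative tried.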

How the results depend on the processing

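Changes of single genes kept their direction and side of the threshold in 361 of the alternatives, passed it newly in 12, lost it in 82 and reversed in 4. The cause was not tested. The 4 reversals came against all 11 control clones: Col4a5 in ATF1-KO (0.47), Itgb5 in double-KO (-1.76), Itga3 (0.25) and Itga1 (0.036) in triple-KO. That setting called 19 genes in double-KO and 1 in triple-KO (Mmp7, which entered the test through the libraries where it is high). It called 27 and 3 of the other matrix genes, where 32.1% and 1.03% of all genes were called. Run as a term gave 2 in double-KO and 3 in triple-KO, where 4.58% and 8.02% of all genes were called. With no filter on low values, other matrix genes called were 0 in double-KO and 6 in triple-KO (0% and 2.98% of all genes were). Each difference between labels then gave 1 call, Mmp13, which was at most 0.25 TPM in any library. It was at 0 in control clones 6 to 8 and at 0.14, 0.25 and 0.22 TPM in double-KO replicates 1 to 3, so this is a description. Shares of all genes are not given for differences between labels under these settings. Quantile normalization gave 1 call for double-KO minus ATF1-KO, Fn1. In triple-KO (9.86% of all genes called) it gave 5 calls, 2 higher and 3 lower, where the reported split was 1 and 4. Of these, 4 were shared, Col4a2 was added and Itga1 was lost. For triple-KO, median-ratio scaling split the other matrix genes 9 and 4, in place of 6 and 5. It called 9.73% of all genes there, where the reported fit called 9.17%. With one library left out, calls were 0 to 0 in ATF1-KO and in double-KO, 0 to 13 in triple-KO, 0 to 2 for double-KO minus ATF1-KO (2 without double-KO replicate 2) and 0 to 0 for triple-KO minus double-KO. The other matrix genes gave 0 to 0, 0 to 1 and 3 to 31. Over all genes, the ATF1-KO fits called 0% to 0.00751%, the double-KO fits 0% to 0.478% and the triple-KO fits 1.4% to 25.1%. A lone sample was never left in a group.

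The ATF1-KO and control libraries of run 1 share numbers 1 to 5. Their deviations correlated at -0.10 to 0.08 in the 5 pairs, none over 0.1. Of the 5 libraries labelled ATF1-KO, 1 correlated best with its own number. These values show no pairing by number, but they cannot exclude one by design. The replicate block gave 0 calls. No paired analysis was possible in double-KO and triple-KO because their control clones carry other numbers. TPM does not give depth, so no limit of detection is stated for genes listed at 0.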
